A study of Homo sapiens with 9 samples.

Results

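The exon junction complex (EJC) is a protein assembly that the spliceosome leaves on mRNA just upstream of exon-exon junctions. It marks spliced mRNA for export, localisation, translation and quality control. A stop codon that is followed by a junction with a bound EJC can be a cue for nonsense-mediated decay (NMD), so the EJC links splicing to NMD. The RNA helicase UPF1 is a central factor in NMD. The genes described here are 9 in number of 58214 genes quantified. They were listed by name, with earlier results of these data known when the list was made. EIF4A3, MAGOH, its paralog MAGOHB, RBM8A and CASC3 encode the core of the EJC. RNPS1, ACIN1, PNN and SAP18 encode peripheral proteins, which form the ASAP complex (RNPS1, SAP18 and acinus, the product of ACIN1) and the PSAP complex (RNPS1, SAP18 and pinin, the product of PNN).

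On GRCh38 the genes lie as follows. EIF4A3 (ENSG00000141543) is at chr17:80134369-80147151 on the minus strand. CASC3 (ENSG00000108349) is at chr17:40140318-40172171 on the plus strand. MAGOH (ENSG00000162385) is at chr1:53226900-53238518 on the minus strand, and RBM8A (ENSG00000265241) is at chr1:145921556-145927678 on the minus strand. MAGOHB (ENSG00000111196) is at chr12:10604193-10613609 on the minus strand. Of the peripheral genes, ACIN1 (ENSG00000100813) is at chr14:23058564-23095614 on the minus strand and PNN (ENSG00000100941) is at chr14:39175183-39183220 on the plus strand, while RNPS1 (ENSG00000205937) is at chr16:2253116-2268397 on the minus strand and SAP18 (ENSG00000150459) is at chr13:21140119-21149097 on the plus strand.

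Poly(A) RNA was sequenced from K562, a human erythroleukaemia cell line, in 9 libraries. The cells received a non-targeting siRNA (SCR), siRNA against DHX34, an RNA helicase with roles in NMD and splicing, or siRNA against UPF1, with 3 libraries for each. Cells of all groups were transfected with siRNA and harvested on day 4. The study's text calls its RNA-seq replicates biological, and the labels do not say whether the libraries of a group came from separate cultures, so p-values measure the spread between these libraries. All libraries come from a single cell line.

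The siRNAs left part of each target. DHX34 mRNA was at 73.7 ± 1.11 CPM (counts scaled to library size; SD, n = 3) in SCR and 31.4 ± 2.32 CPM in the DHX34 knockdown. UPF1 mRNA was at 262 ± 8.13 CPM in SCR and 106 ± 1.46 CPM in the UPF1 knockdown. Library totals ran from 73478797 to 103625443 expected counts, and replicates of a group correlated at 0.987 or above on the log2 CPM scale. All 7 erythroid markers used to check the cell line were at 33.0 TPM (a level scaled to library size and adjusted for transcript length) or above in every library. Of 12 markers of other lineages, 8 were under 1 TPM in every library, CD8A among them at 0, while the epithelial markers EPCAM and KRT19 reached 80.4 and 122 TPM. The summed TPM of the 7 erythroid markers was 18200 to 19476 with SCR, 16726 to 18582 with DHX34 knockdown and 11660 to 12498 with UPF1 knockdown. The sum of the 12 others was 168 to 171, 197 to 207 and 142 to 145 TPM in the same order. Most of the erythroid sum came from HBG1 (3603 to 5586 TPM over all libraries) and HBG2 (7222 to 13174 TPM). Each other erythroid marker was at 284 TPM or less, so the sum does not describe the erythroid markers as a set. EPCAM and KRT19 likewise made up most of the sum of the others. The part of the shifts in these sums in the results for the EJC genes was not tested. In bulk RNA, fewer cells of a kind and less RNA per cell cannot be told apart.

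Several transcripts described below differ in where their annotated stop codon lies, and the part of that place in the results was not tested. For 5 transcripts, 30-base windows around annotated stop codons are shown, 5′ to 3′ in the direction of the mRNA with the stop codon in capitals. They were read from the GENCODE 44 transcripts of GRCh38, and their 3′ UTR lengths and junctions are those of that annotation. Of the 102 transcripts of the 9 genes, 92 had the same length in the quantification as in GENCODE 44 and 10 did not. Among the 10 were RBM8A-204 (4961 and 4909 bases), MAGOHB-201 (2623 and 2606 bases) and ACIN1-223 (4474 and 4460 bases). Larger differences were those of EIF4A3-206 (553 and 1492 bases), SAP18-201 (2298 and 2708), RNPS1-202 (2241 and 1951), CASC3-201 (4116 and 3890) and MAGOH-202 (756 and 656). ENST00000269349 of EIF4A3, also among the 10, is absent from GENCODE 44. MAGOHB-201 is the reference form of MAGOHB and carries its usual stop codon, and MAGOHB-208 and MAGOHB-209 are annotated as NMD targets.
MAGOHB-201: aagattaaaccaattTAAattgtatgtttt
MAGOHB-208: ggccgacagaataaaTGAtgtttctcaggc
MAGOHB-209: acttccagagcagtaTGAgcagaggatgag
The stop codon of MAGOHB-201 is at chr12:10606275-10606277 on the minus strand, in the last exon, with no junction behind it. MAGOHB-208 includes an exon of 286 bases at chr12:10609098-10609383 that MAGOHB-201 lacks. The first 9 bases of its window come from the exon before, and its stop codon, at chr12:10609375-10609377, lies within the added exon. Behind that stop codon are 2 junctions, the last of them 360 bases downstream. MAGOHB-209 includes a different added exon of 339 bases at chr12:10612640-10612978, with the stop codon at chr12:10612827-10612829 and 4 junctions behind it.

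For ACIN1 the reference form is ACIN1-223, and ACIN1-206 is the more abundant of the forms annotated as NMD targets.
ACIN1-223: cggggtgggcgccgcTAGctgggaaaacac
ACIN1-206: caactggccaatcgcTGAtgccgcctcttc
ACIN1-206 includes an exon of 1358 bases at chr14:23067314-23068671 (minus strand) that has no counterpart in ACIN1-223. Its stop codon at chr14:23068612-23068614 lies in that exon and is followed by 10 junctions, the last 2522 bases downstream. The stop codon of ACIN1-223, at chr14:23059148-23059150, has no junction behind it.

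The RBM8A forms end their coding sequence at the same stop codon and differ downstream of it. RBM8A-204, the reference form, continues without a junction into a 3′ UTR of 4326 bases. RBM8A-205 is spliced 3 bases after the stop codon and has a 3′ UTR of 205 bases. RBM8A-201 has no junction behind the stop codon and a 3′ UTR of 240 bases.

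Within SCR, the 9 genes spanned about an order of magnitude in TPM, and all were above the median of the genes that reached 0.5 TPM. RNPS1, a splicing coactivator, was highest at 269 ± 3.95 TPM (SD, n = 3), at the 96.7th percentile of those genes. CASC3, the core protein that joins the trimer of EIF4A3, MAGOH and RBM8A, was lowest at 29.9 ± 1.52 TPM, at the 73.1st percentile. RBM8A (260.4 ± 4.40 TPM) and MAGOH (257 ± 2.59 TPM) followed RNPS1, and their SCR libraries overlapped, so their order is not set. EIF4A3 came next at 143 ± 6.53 TPM and overlapped no other gene. ACIN1 (75.4 ± 5.90 TPM) and MAGOHB (71.7 ± 3.62 TPM) also overlapped. SAP18 (87.1 ± 5.30 TPM) lay between EIF4A3 and ACIN1, with its lowest library at 81.2 TPM and the highest of ACIN1 at 81.1 TPM. PNN (38.004 ± 6.88 TPM) lay just above CASC3, with its lowest library at 32.3 TPM and the highest of CASC3 at 31.4 TPM.

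Library by library, TPM of EIF4A3 was 136, 145 and 149 with SCR, 133, 146 and 143 with DHX34 knockdown, and 129, 141 and 143 with UPF1 knockdown. For MAGOH the TPM values were 255, 255 and 259.8 with SCR, 242, 245 and 246 after DHX34 knockdown, and 249, 256 and 254 after UPF1 knockdown. MAGOHB was at 73.7, 67.6 and 74.0 TPM with SCR, 69.4, 62.5 and 68.0 TPM with DHX34 knockdown, and 73.7, 76.2 and 69.2 TPM with UPF1 knockdown. On this scale the groups of EIF4A3 and MAGOHB overlapped throughout, and MAGOH in the DHX34 knockdown lay below both other groups.
RBM8A was at 255, 263 and 263 TPM in SCR, 242, 242 and 254 TPM with DHX34 depleted, and 252, 259.9 and 260.3 TPM with UPF1 depleted. CASC3 was at 30.1, 31.4 and 28.3 TPM with SCR, 34.2, 33.1 and 38.3 TPM with DHX34 knockdown, and 42.6, 41.9 and 41.6 TPM with UPF1 knockdown. RNPS1 was at 268, 273 and 265 TPM with SCR, 289, 298 and 304 TPM with DHX34 knockdown, and 295, 300.4 and 293 TPM with UPF1 knockdown. RBM8A in the DHX34 knockdown lay below SCR, CASC3 had 3 groups without overlap, lowest in SCR and highest with UPF1 knockdown, and both knockdowns of RNPS1 lay above SCR.
ACIN1 was at 76.0, 81.1 and 69.3 TPM with SCR, 83.5, 84.1 and 99.0 TPM with DHX34 knockdown, and 95.6, 95.6 and 89.6 TPM with UPF1 knockdown. PNN was at 36.1, 45.6 and 32.3 TPM with SCR, 42.1, 36.9 and 53.1 TPM with DHX34 knockdown, and 42.8, 46.7 and 41.3 TPM with UPF1 knockdown. SAP18 was at 91.4, 81.2 and 88.7 TPM with SCR, 78.8, 86.6 and 69.7 TPM with DHX34 knockdown, and 75.3, 75.8 and 74.9 TPM with UPF1 knockdown. Both knockdowns of ACIN1 lay above SCR, all groups of PNN overlapped, and SAP18 in the UPF1 knockdown lay below SCR.

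TPM divides by the total over all transcripts, and on that scale the median of all genes was itself shifted, by 0.13 (log2, with 0.5 TPM added) for DHX34 knockdown and 0.17 for UPF1 knockdown, both against SCR. Tests of the genes therefore used expected counts, the reads that salmon assigned to a transcript, summed per gene, with TMM size factors, which set the median gene near 0 (0.02 in either knockdown against SCR). Values in CPM below are on that scale.

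**Figure D1:**
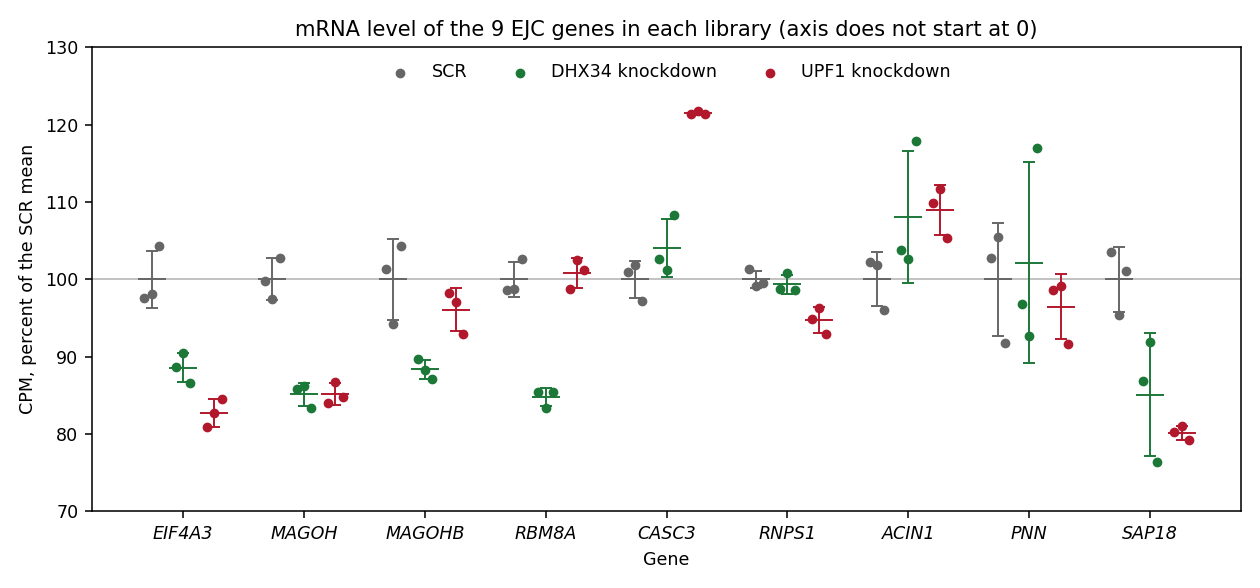
CPM of each of the 9 genes in every library, as percent of the mean of the 3 SCR libraries (vertical axis from 70 to 130 percent, not from 0). Points are libraries, short lines are means and bars are SDs (n = 3). The UPF1 knockdown libraries of CASC3 lie above 100 percent, those of EIF4A3, MAGOH and SAP18 lie below it, and RBM8A is lower only in the DHX34 knockdown.

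The first comparison, DHX34 knockdown against SCR, asks what depletion of DHX34 does to these mRNAs. RBM8A and MAGOH, the partners that form a heterodimer at the centre of the EJC core, were lower by about 15%. The other 7 genes did not pass the test. Of 9 genes, 2 were called lower and 0 higher at an adjusted p of at most 0.005 (edgeR), against 4.85% of all 17004 genes tested called lower, 5.54% called higher and 10.4% in either direction. The median log2 fold change of the 9 was -0.17, beside 0.02 for all genes tested.

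RBM8A, also called Y14, was at 192, 192 and 199.9 CPM under SCR and at 166, 162 and 167 CPM in the DHX34 knockdown. Every knockdown library was below every SCR library. The log2 fold change was -0.24 ± 0.03 (SE), a level that fell by 15.1% (edgeR adjusted p = 0.00056). MAGOH was at 106, 103 and 109 CPM in SCR and 90.8, 91.2 and 88.2 CPM in the knockdown, again without overlap. Its log2 fold change was -0.23 ± 0.04 (edgeR adjusted p = 0.0013). The call of RBM8A held with each of the 6 libraries left out in turn. That of MAGOH did not hold without SCR replicate 1 (-0.23, edgeR adjusted p = 0.0065), SCR replicate 3 (-0.21, adjusted p = 0.0077) or DHX34 knockdown replicate 1 (-0.24, adjusted p = 0.0067).

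EIF4A3, SAP18 and MAGOHB had lower means without passing the test. EIF4A3, the DEAD-box helicase that clamps the EJC on RNA, was at 179.9 ± 6.65 CPM in SCR and 159 ± 3.46 CPM in the DHX34 knockdown (log2 fold change -0.17 ± 0.04, edgeR adjusted p = 0.0073). SAP18, a subunit of ASAP and PSAP, was at 107 ± 4.48 and 90.8 ± 8.50 CPM (-0.23 ± 0.06, adjusted p = 0.023). MAGOHB, whose protein is nearly identical to MAGOH, was at 35.6 ± 1.85 and 31.4 ± 0.447 CPM (-0.18 ± 0.05, adjusted p = 0.021). In all 3 the CPM of the groups did not overlap. With ACIN1, whose knockdown libraries were higher, 6 of 9 genes had groups that did not overlap, where 41.4% of all genes tested did so.
CASC3, RNPS1, ACIN1 and PNN had log2 fold changes of 0.06, -0.01, 0.11 and 0.03, with edgeR adjusted p-values of 0.32, 0.90, 0.14 and 0.82. In TPM, the knockdown libraries of RNPS1, CASC3 and ACIN1 were all above SCR, and on log2(TPM + 0.5) limma put them at 0.14, 0.23 and 0.23 (adjusted p = 0.012, 0.040 and 0.072), so none was called. The TPM of SAP18 overlapped between the groups. Replicate 3 of the DHX34 knockdown stood above the other libraries of its group for ACIN1 (227 CPM, beside 199.7 and 198) and for PNN (127 CPM, beside 105 and 101).

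**Figure D2:**
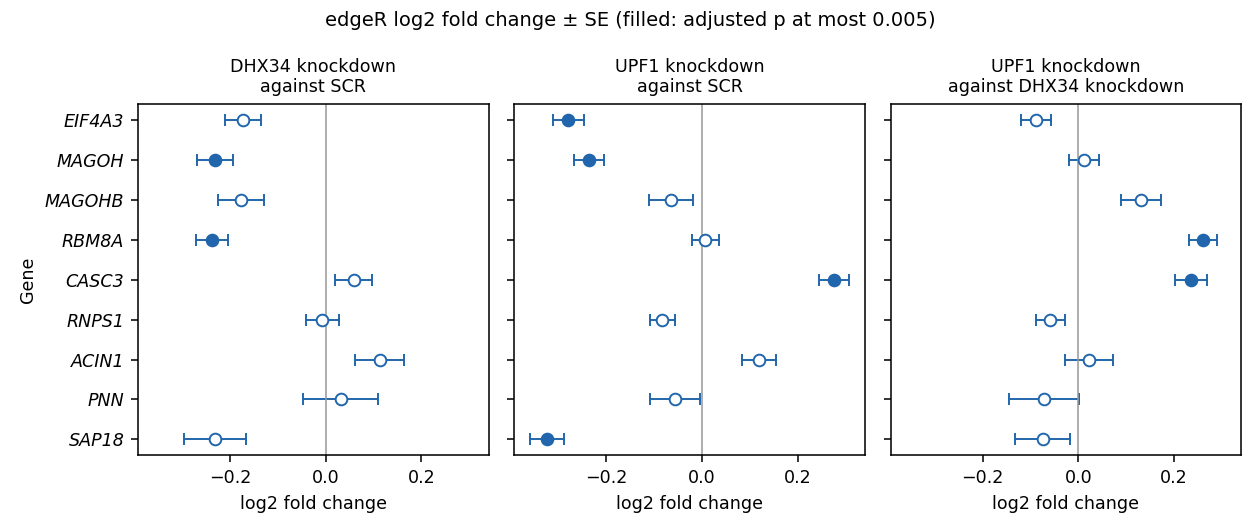
Log2 fold changes of the 9 genes from edgeR in the 3 comparisons, with SEs as bars. Filled circles passed an adjusted p of at most 0.005: RBM8A and MAGOH in the DHX34 knockdown, 4 genes in the UPF1 knockdown, and RBM8A and CASC3 between the knockdowns.

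Gene length moved with the fold change in these libraries. The mean fragment length, estimated from the effective lengths, also differed between libraries. It was 254 bases in each SCR library, 258, 259 and 258 with DHX34 knockdown, and 251, 252 and 256 with UPF1 knockdown. Its part in the length trend was not tested. Over all genes tested in the DHX34 knockdown against SCR, fold change and effective length correlated across genes at a Spearman rho of 0.24, which is a description since genes are not replicates. With all genes ordered by length into 10 groups of equal size, the median log2 fold change was -0.09 in the shortest group, -0.12 in the next and 0.15 in the longest. MAGOH, at an effective length of 399 bases, and MAGOHB, at 506 bases, were in the shortest group and RBM8A, at 769 bases, was in the next. The lower quartiles of those groups were -0.297 and -0.241, below MAGOH at -0.231 and RBM8A at -0.237. EIF4A3 (-0.173) and SAP18 (-0.231), neither of them called, were in length group 4, counted from the shortest. Both lay below its lower quartile of -0.154, while RNPS1 (-0.01), in the same group, lay above it. With the length trend removed, RBM8A was at -0.14 (edgeR adjusted p = 0.016) and MAGOH at -0.12 (adjusted p = 0.033), so neither was called. On log2(TPM + 0.5), which carries the overall shift given above, limma put RBM8A at -0.08 (adjusted p = 0.086) and MAGOH at -0.07 (adjusted p = 0.059). Over all alternatives other than left-out libraries, adjusted p ran from 5.98e-09 to 0.088 for RBM8A and from 1.61e-06 to 0.065 for MAGOH.

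**Figure D3:**
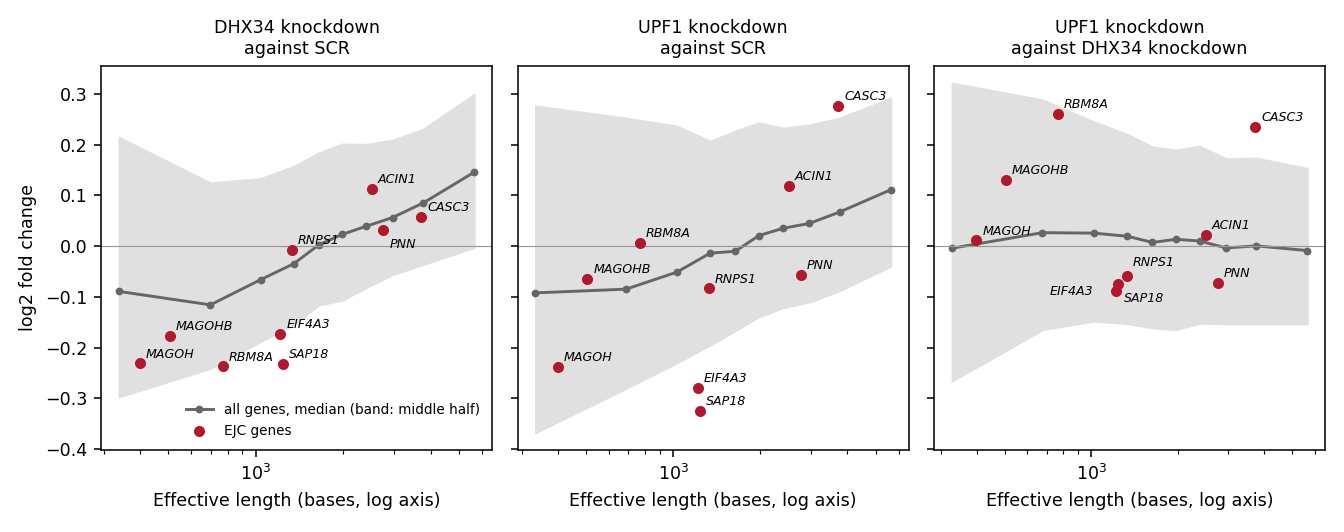
Log2 fold change against effective length (bases, log axis) in the 3 comparisons. The grey line joins the medians of 10 groups of genes of equal size ordered by length, the band runs from the lower to the upper quartile of each group, and red points are the 9 EJC genes. The line rises with length in both comparisons with SCR. In the DHX34 knockdown MAGOH and RBM8A lie among the shorter genes, below the line. There MAGOH is within the band, RBM8A and EIF4A3 are near its lower edge and SAP18 is below it.

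In the UPF1 knockdown against SCR, which asks how these mRNAs respond to loss of the central NMD factor, CASC3 rose and EIF4A3, MAGOH and SAP18 fell. The SCR libraries are those of the previous comparison, so the comparisons are not independent. Thus 1 of 9 genes was called higher and 3 lower, 4 in all, where of 17184 genes tested 12.4% were called higher, 12.9% lower and 25.3% in either direction. The median log2 fold change of the 9 genes was -0.06, beside 0.02 for all genes. The groups did not overlap in CPM for 6 of 9 genes, where they did not overlap for 50.6% of all genes tested. All 4 calls held with each of the 6 libraries left out in turn.

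CASC3 was at 116, 117 and 112 CPM in SCR and 139.96, 140.4 and 140.05 CPM in the UPF1 knockdown. The knockdown libraries were close to each other and all higher than SCR. The log2 fold change was 0.28 ± 0.03 (SE), a rise of 21.1% (edgeR adjusted p = 2.36e-05). EIF4A3 was at 176, 177 and 188 CPM in SCR and 145, 149 and 152 CPM in the knockdown, without overlap, and fell by 17.6% (log2 -0.28 ± 0.03, edgeR adjusted p = 2.69e-05).
MAGOH was at 88.9, 91.7 and 89.7 CPM in the UPF1 knockdown, all below its SCR libraries, with a log2 fold change of -0.24 ± 0.03 (edgeR adjusted p = 7.75e-05). SAP18 was at 111, 102 and 108 CPM in SCR and 85.7, 86.5 and 84.5 CPM in the knockdown. It fell the most of the 9, by 20.1% (log2 -0.32 ± 0.03, edgeR adjusted p = 1.61e-05), and its groups did not overlap.
Of the 5 genes not called, ACIN1 was at 0.12 ± 0.04 (edgeR adjusted p = 0.018) and RNPS1 at -0.08 ± 0.03 (adjusted p = 0.023). MAGOHB (-0.06, adjusted p = 0.30), PNN (-0.06, adjusted p = 0.43) and RBM8A (0.01, adjusted p = 0.89) had groups that overlapped.

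Length moved with the fold change here too (rho 0.15 over all genes). With that trend removed, CASC3 (0.20, edgeR adjusted p = 0.00022), EIF4A3 (-0.26, adjusted p = 9.4e-05) and SAP18 (-0.30) were still called and MAGOH was not (-0.12, adjusted p = 0.014). On log2(TPM + 0.5), limma called CASC3 (0.48), ACIN1 (0.31) and RNPS1 (0.14), the last opposite in sign to its CPM value, and did not call EIF4A3 (-0.06), MAGOH (-0.02) or SAP18 (-0.21, adjusted p = 0.0086). Among the 4 genes called, CASC3 was thus called under every alternative, and the falls of the other 3 depended on the scale. For SAP18 the adjusted p over the alternatives ran from 2.69e-16 to 0.0086, for EIF4A3 from 4.49e-15 to 0.38 and for MAGOH from 1.67e-10 to 0.48. For EIF4A3, 92.3% to 94.9% of the expected counts of a library came from the transcript ENST00000269349, which GENCODE 44 does not hold and which was joined to the gene through the authors' deposited gene table. Without that transcript EIF4A3 was at -0.20 (edgeR adjusted p = 0.20) in the UPF1 knockdown and at -0.25 (adjusted p = 0.14) in the DHX34 knockdown.

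The knockdowns were also compared directly, which tests whether their effects differ. RBM8A and CASC3 were higher in the UPF1 knockdown than in the DHX34 knockdown and the other 7 genes did not pass. The 2 called genes of 9 were both higher, where 9.89% of 17435 genes tested were called higher, 7.47% lower and 17.4% in either direction. The median log2 difference of the 9 genes was 0.01, equal to that of all genes at 0.01.
RBM8A was at 192, 199.7 and 197 CPM with UPF1 knockdown, above all 3 DHX34 knockdown libraries and overlapping SCR, and its log2 difference between the knockdowns was 0.26 ± 0.03 (edgeR adjusted p = 7.08e-05). CASC3 was at 118, 117 and 125 CPM in the DHX34 knockdown, below all UPF1 knockdown libraries, and its log2 difference was 0.23 ± 0.03 (edgeR adjusted p = 0.00033). Both were called with each library left out in turn. Groups that did not overlap in CPM numbered 5 of 9, where 45.9% of all genes tested had such groups. Between the knockdowns, length and fold change correlated at a rho of -0.03 over all genes, and both genes were still called with the length trend removed. With counts scaled for transcript length neither was called, RBM8A being at 0.03 (edgeR adjusted p = 0.54) and CASC3 at 0.22 (adjusted p = 0.0063). Neither was called on log2(TPM + 0.5), RBM8A being at 0.06 (limma adjusted p = 0.18) and CASC3 at 0.25 (adjusted p = 0.017). For CASC3, over all alternatives other than left-out libraries, adjusted p ran from 6.19e-08 to 0.017. MAGOH (0.01), SAP18 (-0.07), EIF4A3 (-0.09), RNPS1 (-0.06), ACIN1 (0.02), PNN (-0.07) and MAGOHB (0.13, adjusted p = 0.032) were not called. The call of SAP18 depended on DHX34 knockdown replicate 3, without which it was -0.16 (edgeR adjusted p = 0.0026).

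The 9 genes have 102 transcripts in the quantification, of which 55 averaged 0.5 TPM or more. Salmon divides reads between transcripts that share exons, so values of single transcripts are estimates. The most abundant transcript by TPM was ENST00000269349 for EIF4A3, MAGOH-202, MAGOHB-204, RBM8A-205, CASC3-201, RNPS1-226, ACIN1-202, PNN-201 and SAP18-201. RNPS1-226 is annotated as a retained intron form and the other 8 are coding or, for EIF4A3, absent from GENCODE 44. A single form carried most of the TPM of CASC3 (92.8% for CASC3-201), PNN (90.3% for PNN-201) and EIF4A3 (75.8%), whereas no transcript of ACIN1 exceeded 17.4%.

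In the UPF1 knockdown against SCR, edgeR called 6 of 68 transcripts of these genes, 3 higher and 3 lower, where it called 0.97% of 62498 transcripts higher, 1.62% lower and 2.59% in either direction. RBM8A-204, ACIN1-205 and CASC3-201 rose, and RBM8A-205, MAGOH-202 and ENST00000269349 of EIF4A3 fell. RBM8A was the only one of the 9 genes with transcripts called in both directions. None of the 6 was called once any one of the 6 libraries was left out, with adjusted p from 0.0094 to 0.027 over those fits, while their signs did not change. In the DHX34 knockdown against SCR, edgeR called 0 of 62, where it called 0.0348% of 60417 transcripts higher, 0.0116% lower and 0.0463% in either direction. At an unadjusted p under 0.05 there were 16 of 62, where 15.2% of all transcripts tested were, and DESeq2 called 4. Between the knockdowns 1 of 67 was called, RBM8A-204, where 1.05% of 64326 were called.

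RBM8A-204, the form with the long 3′ UTR, was at 60.6, 63.1 and 64.6 CPM with SCR, 55.4, 51.7 and 55.3 CPM with DHX34 knockdown, and 85.2, 88.4 and 86.1 CPM with UPF1 knockdown. The UPF1 knockdown was above both other groups without overlap, and the DHX34 knockdown was below SCR. Its log2 fold change was 0.41 ± 0.04 in the UPF1 knockdown against SCR (edgeR adjusted p = 0.0020) and 0.66 ± 0.04 against the DHX34 knockdown (adjusted p = 0.00073). The latter call held only without DHX34 knockdown replicate 3 among the libraries left out, and without each of the other 5 the adjusted p was 0.0054 to 0.010.
RBM8A-205, the form spliced behind the stop codon, was at 78.7, 78.3 and 81.1 CPM with SCR, 68.8, 67.9 and 66.8 CPM with DHX34 knockdown, and 63.7, 64.1 and 66.2 CPM with UPF1 knockdown. Both knockdowns were below SCR, and only the UPF1 knockdown was called (log2 -0.35 ± 0.03, edgeR adjusted p = 0.0025). The short form RBM8A-201 was at 52.1 ± 1.72 CPM with SCR, 42.7 ± 0.869 CPM with DHX34 knockdown and 44.6 ± 1.94 CPM with UPF1 knockdown, and was not called in either (log2 -0.29, adjusted p = 0.031, and -0.28, adjusted p = 0.016). Of the expected counts of RBM8A, RBM8A-204 took 32.2 ± 0.659% with SCR, 32.8 ± 0.818% with DHX34 knockdown and 44.1 ± 0.360% with UPF1 knockdown. The sum over the gene was thus nearly level in the UPF1 knockdown while its longest form rose and the 2 shorter forms had lower means.

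**Figure D4:**
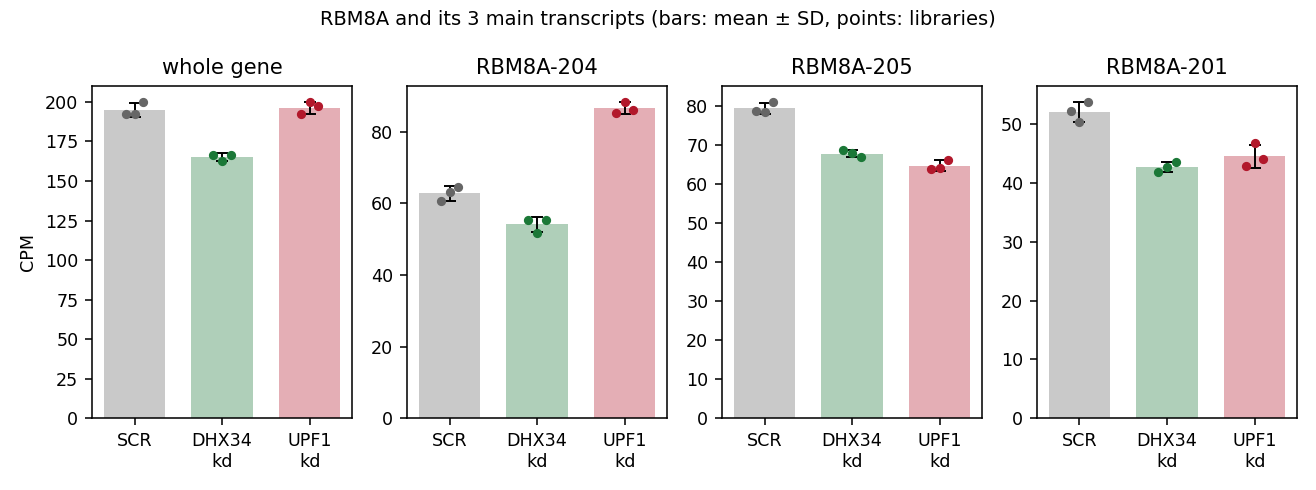
CPM of RBM8A and of its 3 main transcripts in each library, with a separate vertical axis from 0 for each panel. Bars are means, error bars SDs (n = 3) and points libraries (kd, knockdown). RBM8A-204 is highest in the UPF1 knockdown, while RBM8A-205 and RBM8A-201 are lower in both knockdowns than in SCR.

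A change in the mix of long and short forms alters how many reads a molecule gives. The mean effective length of RBM8A, weighted by its transcripts, was 727 ± 4.80 bases with SCR, 724 ± 8.84 bases with DHX34 knockdown and 854 ± 7.83 bases with UPF1 knockdown. With counts scaled for that length, RBM8A was lower in the UPF1 knockdown than in SCR (log2 -0.24, edgeR adjusted p = 0.00049) and did not differ by the test from the DHX34 knockdown (0.03, adjusted p = 0.54). In the DHX34 knockdown against SCR the scaled value was -0.25 (adjusted p = 0.0023). The direct difference between the knockdowns in RBM8A counts therefore came with a longer mean transcript and was not called per transcript molecule.

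In each comparison, shares of a gene's TPM were fitted by limma for 29 transcripts of the 9 genes. These averaged 0.5 TPM or more and held 5% to 95% of their gene over the 6 libraries compared. The 29 were not the same transcripts in every comparison, so the counts are not over a single set. No share of these genes was called at an adjusted p of at most 0.05. At an unadjusted p under 0.05 were 2, 7 and 3 in the DHX34 knockdown, the UPF1 knockdown and the direct comparison. Limma called 0.294%, 1.62% and 0.776% of all shares tested, in the same order. Of all shares, 13.6%, 19.8% and 14.8% were at an unadjusted p under 0.05 in these comparisons. For the UPF1 knockdown, 0.813% of all shares were called higher and 0.809% lower. The share of RBM8A-204 was 5.09, 5.38 and 5.23% with SCR, 5.44, 5.12 and 5.42% with DHX34 knockdown, and 8.49, 8.52 and 8.23% with UPF1 knockdown. That of MAGOHB-208 was 1.32, 3.51 and 1.80% with SCR, 2.62, 2.46 and 3.14% with DHX34 knockdown, and 7.39, 7.61 and 8.60% with UPF1 knockdown. In both transcripts the UPF1 knockdown was above the other groups without overlap. MAGOHB-208 had mean shares of 2.21% with SCR and 2.74% with DHX34 knockdown, so it passed the 5% limit only through the UPF1 knockdown (7.87%). Its lack of overlap, which is also counted below, therefore adds no support. It was not tested for DHX34 knockdown against SCR. The log2 differences of RBM8A-204 and MAGOHB-208 from SCR were 0.73 ± 0.17 (limma adjusted p = 0.095) and 1.9596 ± 0.43 (adjusted p = 0.084). Shares that did not overlap between UPF1 knockdown and SCR numbered 10 of 29, where 27.8% of all shares did so. They numbered 5 of 29 for DHX34 knockdown against SCR, where 21.3% of all shares did so, and 9 of 29 between the knockdowns, where 22.5% did so.

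The other transcripts called in the UPF1 knockdown belonged to genes described above. CASC3-201 was at 114, 115 and 111 CPM in SCR and 137, 138 and 138 CPM in the UPF1 knockdown (log2 0.23 ± 0.02, edgeR adjusted p = 0.0036), the whole group above SCR. Its share of CASC3 TPM was 94.0 ± 1.42% in SCR and 93.4 ± 1.35% in the knockdown, so the rise of the gene was carried by its main form. By the annotation CASC3-201 has a junction 41 bases behind its stop codon, and it is annotated as coding and not as an NMD target. Whether that junction has a part in the rise was not tested.
ENST00000269349 of EIF4A3 was at 164, 165 and 175 CPM in SCR and 137, 137 and 140.4 CPM in the UPF1 knockdown (log2 -0.33 ± 0.03, edgeR adjusted p = 0.0030). MAGOH-202 was at 81.7, 81.4 and 85.5 CPM in SCR and 68.9, 71.2 and 68.8 CPM in the UPF1 knockdown (log2 -0.30 ± 0.03, edgeR adjusted p = 0.0040). In CPM each fell without overlap, as did its gene. In TPM ENST00000269349 with UPF1 knockdown also lay below SCR, while MAGOH-202 and both genes overlapped SCR. Apart from left-out libraries, ENST00000269349 was called in 4 of 6 alternatives (log2 -0.36 to -0.08). MAGOH-202 was called in 3 of 6 (log2 -0.33 to -0.05). MAGOH-201, which lacks the exon of 111 bases at chr1:53233542-53233652, was at 22.6 ± 1.20 CPM in SCR and 20.3 ± 0.567 CPM in the UPF1 knockdown, and the share of MAGOH-202 was 65.0 ± 1.20 and 63.5 ± 0.836% of MAGOH TPM.
ACIN1-205, a long coding form, was at 47.5, 46.9 and 44.96 CPM with SCR, 57.7, 54.8 and 69.8 CPM with DHX34 knockdown, and 60.9, 59.1 and 59.5 CPM with UPF1 knockdown. Both knockdowns were above SCR, and the UPF1 knockdown was called (log2 0.31 ± 0.04, edgeR adjusted p = 0.0043). ACIN1-202, the most abundant form by TPM, went from 34.7 ± 0.284 CPM in SCR to 27.8 ± 1.45 CPM in the UPF1 knockdown and missed the threshold (log2 -0.37, adjusted p = 0.0072).

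Transcripts annotated as NMD targets make up 10 of the 102. MAGOHB has 5, ACIN1 and CASC3 have 2 each, and RNPS1 has 1, while EIF4A3, MAGOH, RBM8A, PNN and SAP18 have none. Only MAGOHB, ACIN1 and CASC3 had enough of them (a mean of 0.1 TPM) for the share to be tested, RNPS1-209 being at a mean of 0.064 TPM. In the UPF1 knockdown against SCR the share rose in MAGOHB, 1 of 3, where limma called 13% of 3846 genes higher, 0.754% lower and 13.8% in either direction. The median log2 difference was 0.76 for the 3 genes and 0.45 for all genes tested. For DHX34 knockdown against SCR, limma called 0 of 3 and none had an unadjusted p under 0.05 (0 also from expected counts), where 0.216% of 3699 genes were called, 0.135% higher and 0.0811% lower. Between the knockdowns MAGOHB was again the 1 of 3 called, where 12.4% of 3904 genes were higher, 0.538% lower and 12.9% were called in either direction.

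NMD-annotated forms took 2.26, 5.35 and 3.28% of MAGOHB TPM with SCR, 4.25, 4.07 and 5.32% with DHX34 knockdown, and 12.2, 11.8 and 12.3% with UPF1 knockdown. The UPF1 knockdown libraries were all above the 6 others, which overlapped. The log2 difference was 1.91 ± 0.34 against SCR (limma adjusted p = 0.021), 1.51 ± 0.19 against the DHX34 knockdown (adjusted p = 0.013) and 0.40 ± 0.37 for DHX34 knockdown against SCR (adjusted p = 0.79). Leaving out SCR replicate 3 (1.88), UPF1 knockdown replicate 1 (1.91), replicate 2 (1.94) or replicate 3 (1.90) ended the call of the first of these, with limma adjusted p of 0.060, 0.074, 0.075 and 0.083. Leaving out UPF1 knockdown replicates 1, 2 or 3 did so for the second, with differences of 1.501, 1.534 and 1.496 and adjusted p of 0.066, 0.062 and 0.069. Over the other alternatives adjusted p ran from 0.0074 to 0.070 and from 0.0042 to 0.085.
Most of this share came from MAGOHB-208, whose stop codon in the added exon is printed above. It was at 0.975, 2.37 and 1.33 TPM with SCR, 1.82, 1.54 and 2.14 TPM with DHX34 knockdown, and 5.44, 5.80 and 5.96 TPM with UPF1 knockdown. As a transcript it missed the stricter threshold of 0.005 (log2 1.62 ± 0.33, edgeR adjusted p = 0.029). MAGOHB-209 was at 0.989 ± 0.278 TPM in SCR and 2.25 ± 0.730 TPM in the UPF1 knockdown (log2 0.93 ± 0.38, adjusted p = 0.21). The gene as a whole had overlapping groups in that comparison (35.6 ± 1.85 and 34.2 ± 0.996 CPM).

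NMD-annotated forms took 7.78, 7.13 and 5.93% of ACIN1 TPM with SCR, 6.48, 6.59 and 8.56% with DHX34 knockdown, and 11.8, 10.4 and 11.6% with UPF1 knockdown. The UPF1 knockdown was above the other groups without overlap, but the log2 difference from SCR of 0.76 ± 0.19 just missed the threshold (limma adjusted p = 0.051). ACIN1-206 was at 5.01, 5.36 and 3.64 TPM with SCR, 4.74, 4.98 and 7.58 TPM with DHX34 knockdown, and 9.596, 8.70 and 8.92 TPM with UPF1 knockdown, and was not called as a transcript against SCR (log2 0.70 ± 0.14, edgeR adjusted p = 0.025). In CASC3 these forms took 0.552 ± 0.307% with SCR, 1.19 ± 1.03% with DHX34 knockdown and 1.15 ± 0.681% with UPF1 knockdown, and the groups overlapped (limma adjusted p = 0.52 for UPF1 knockdown against SCR). CASC3-205 was the more abundant of its 2 NMD-annotated forms, at a mean of 0.254 TPM.

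**Figure D5:**
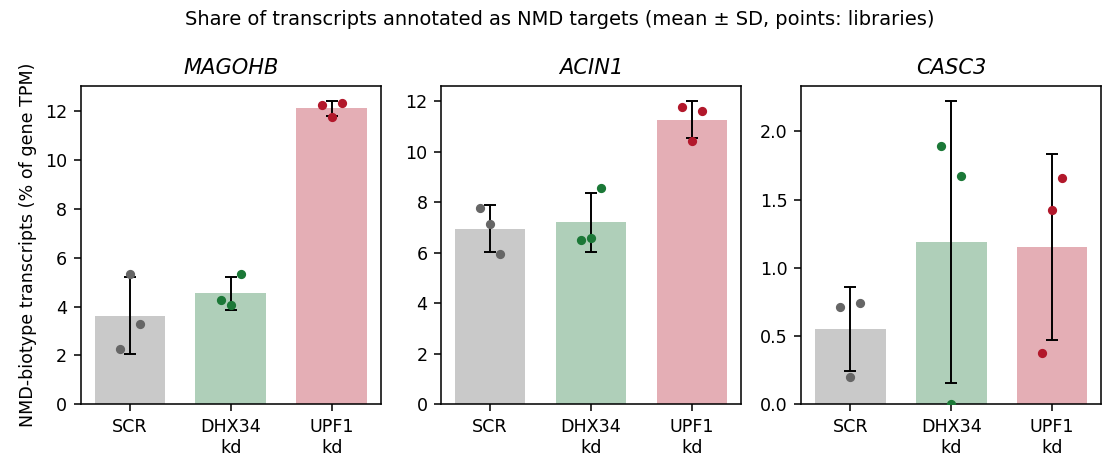
TPM of transcripts annotated as NMD targets as percent of the TPM of MAGOHB, ACIN1 and CASC3 in each library, with a separate vertical axis from 0 for each panel. Bars are means, error bars SDs (n = 3) and points libraries (kd, knockdown). In MAGOHB and ACIN1 the UPF1 knockdown libraries lie above the other 6, and in CASC3 the groups overlap.

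MAGOH and MAGOHB encode nearly the same protein, so their sum and ratio were compared too. The coding sequences of MAGOH-202 (441 bases) and MAGOHB-201 (447 bases) were identical at 85.5% of 447 aligned positions, and the longest identical run was 38 bases, so reads within it cannot be assigned to one paralog by that run alone. MAGOHB made up 22.4, 20.9 and 22.2% of the summed TPM with SCR, 22.3, 20.3 and 21.7% with DHX34 knockdown, and 22.9, 22.9 and 21.4% with UPF1 knockdown. The groups overlapped, and the differences from SCR were -0.41 and 0.58 percentage points (p = 0.6 and p = 0.5, exact two-sided permutation tests with a smallest possible p of 0.1). Between the knockdowns the difference was 0.99 percentage points (exact permutation p = 0.3). By expected counts the groups did not overlap, MAGOHB being 25.5, 24.6 and 25.5% of the pair with SCR, 26.004, 25.6 and 26.01% with DHX34 knockdown, and 28.2, 27.4 and 26.9% with UPF1 knockdown. On that scale the differences from SCR were 0.72 percentage points for DHX34 knockdown, opposite in sign to that by TPM, and 2.35 for UPF1 knockdown, and that between the knockdowns was 1.63 (exact permutation p = 0.1 in each, the smallest possible). By CPM, the sum of both was 141 ± 4.66 with SCR, 122 ± 1.97 with DHX34 knockdown and 124 ± 1.81 with UPF1 knockdown. Both knockdowns were below SCR on that scale. In TPM, each gene with UPF1 knockdown overlapped SCR, and with DHX34 knockdown MAGOH lay below SCR while MAGOHB overlapped it. The sum was not compared in TPM, so its fall is shown for CPM only. Both genes were in the shortest length group, whose median log2 fold change was -0.09 in either knockdown against SCR. Of all genes tested, 41.4% with DHX34 knockdown and 50.6% with UPF1 knockdown had CPM that did not overlap SCR.

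Other genes that act with the EJC were followed as 31 genes in 5 roles. In the UPF1 knockdown against SCR, 11 of 31 were called higher and 8 lower by edgeR, where 12.4% of all genes were called higher and 12.9% lower. All 5 factors followed that link the EJC to NMD or act beside UPF1 in it rose, namely UPF2 (log2 0.51), SMG5 (0.51), SMG6 (0.42), UPF3A (0.24) and UPF3B (0.23), the last of which contacts the EJC. Their median log2 fold change was 0.42, while that of the 9 EJC genes was -0.06. PYM1, which takes EJCs off mRNA in translation, was the 1 of 5 assembly and recycling factors called, and it fell (-0.32).
Of 14 genes of mRNA export and the TREX complex, 4 rose (NCBP2, DDX39B, POLDIP3 and THOC2) and 5 fell (ALYREF, DDX39A, THOC7, THOC6 and THOC3). ALYREF and DDX39A were at -0.30 and -0.28, and NCBP2, a cap-binding subunit, was at 0.27. Of 5 other splicing cofactors SRRM1 rose (0.14) and SRSF1 fell (-0.21). The paralogs of EIF4A3 that act in translation went opposite ways, EIF4A2 at 0.35 and EIF4A1 at -0.27.
In the DHX34 knockdown against SCR, 1 of 31 was called higher, the spliceosome protein PRPF8 (0.20), and 4 lower, all of the export group (THOC7 at -0.34, ALYREF at -0.29, DDX39A at -0.26 and NCBP2 at -0.23), where 5.54% of all genes were called higher and 4.85% lower. Of the 5 NMD factors edgeR called 0, and UPF2 alone (0.14) was at an unadjusted p under 0.05, where 36.7% of all genes were. Between the knockdowns 8 were called higher in the UPF1 knockdown, namely SMG5, SMG6, UPF2, UPF3B, EIF4A2, NCBP2, POLDIP3 and NXF1, and 1 lower, PRPF8, where 9.89% of all genes were called higher and 7.47% lower.

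Reads of some of the 9 genes may be shared with other loci. Exons of RBM8A overlap those of GNRHR2 on the opposite strand (mean 1.98 TPM) and those of 3 further genes at means of 1.00 TPM or less. Exons of ACIN1 overlap C14orf119 on the opposite strand (mean 36.4 TPM), those of RNPS1 overlap MIR3677HG (3.51 TPM) and those of PNN overlap PNN-AS1 (0.321 TPM), all on opposite strands. Since the strandedness of the libraries is not given in the sources used here, reads of overlapping opposite-strand genes cannot be told apart. Pseudogene copies of EIF4A3, RBM8A, RNPS1 and SAP18 were each at 0.162 TPM or less in every library.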

How the data were processed

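Poly(A) RNA of 9 K562 libraries (3 SCR, 3 DHX34 knockdown, 3 UPF1 knockdown, grouped by their titles) was quantified by the authors with Salmon against GRCh38 transcripts, per the submitters' processing notes. The deposited tables hold, for each transcript, an expected count, which is the estimated number of reads assigned to it, and TPM, both as Salmon wrote them before deposit. The aligner's handling of strand is not given in the sources used here. The study's own comparison tables, which hold its fold changes and p-values, were not used, except that 1 deposited gene table pairs ENST00000269349 with EIF4A3.

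From there, transcripts were joined to genes through GENCODE 44. The join held 97.9% of 203027 transcripts and 98.1% of the expected counts in every library. Expected counts were summed per gene, rounded to whole numbers and filtered with filterByExpr at a minimum count of 10. They were tested with edgeR 4.0.16 (TMM, quasi-likelihood, Benjamini-Hochberg over all genes or transcripts tested, called at an adjusted p of at most 0.005), on the 6 libraries of each comparison. CPM are on the TMM scale. Shares of transcripts within a gene, and shares of NMD-annotated transcripts in genes at 1 TPM or more, were tested with limma 3.58.1 on log2 ratios of TPM with 0.1 TPM added, called at an adjusted p of at most 0.05. The MAGOHB share of the pair was compared by exact permutation (SciPy 1.17.1). Library totals of 73478797 to 103625443 expected counts set the precision, and Salmon's uncertainty in dividing reads was not carried into the tests. The fits were tested on simulated data beforehand.

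All 9 genes are named with every library's TPM. Transcripts named are the most abundant of each gene, the most abundant NMD-annotated one, and those called, while RBM8A-201, MAGOH-201, MAGOHB-201, MAGOHB-209 and ACIN1-223 were added beside them after the values were seen. Linked genes are named where called, and 1 gene of that list and 1 sequence are not reported here. The members, lists and tests were chosen with earlier results of these data known. The alternatives were DESeq2 1.42.0, other thresholds, filters and pseudocounts, length-scaled counts, removal of the length trend, limma on TPM, all 9 libraries in 1 fit, a replicate block, each library left out, and, chosen after seeing the data, the GENCODE join without ENST00000269349.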

Additional observations from a re-analysis of the deposited data

Results flagged for a closer look

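The direct test between the knockdowns found 4 differences. RBM8A was 0.26 (log2) and CASC3 0.23 higher in the UPF1 knockdown than in the DHX34 knockdown (edgeR adjusted p = 7.08e-05 and 0.00033). Neither was called with length-scaled counts, where RBM8A was at 0.03 and CASC3 at 0.22 (edgeR adjusted p = 0.54 and 0.0063), or with limma on log2(TPM + 0.5), where they were at 0.06 and 0.25 (adjusted p = 0.18 and 0.017). The transcript RBM8A-204 was 0.66 higher (edgeR adjusted p = 0.00073), a call that held only without DHX34 knockdown replicate 3 among the left-out libraries. The NMD-annotated share of MAGOHB was 1.51 higher on the log2 scale (limma adjusted p = 0.013), and was not called without UPF1 knockdown replicate 1 (1.501), 2 (1.534) or 3 (1.496). Each of the 4 was higher in 3 of 3 UPF1 knockdown libraries than in any DHX34 knockdown library. This adds no support, since the 4 were picked by tests on the same libraries. Of all genes tested, 45.9% had groups that did not overlap in CPM. RBM8A-204 is part of RBM8A, and their mean differences were 32.4 and 31.2 CPM, so these are not separate results.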

How the results depend on the processing

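Leaving out 1 library at a time, the EJC genes called numbered 1 to 2 for DHX34 knockdown against SCR, 4 for UPF1 knockdown against SCR and 2 to 3 between the knockdowns. Transcripts called numbered 0 for UPF1 knockdown against SCR and 0 to 1 between the knockdowns, and NMD-annotated shares 0 to 1 in both. The share of all features called under each alternative is not given here, so the counts in this section show only how the calls moved. For DHX34 knockdown against SCR the genes called numbered 5 at an adjusted p of at most 0.05, 4 with DESeq2, 4 with no filter, 1 with length-scaled counts, 0 with limma on TPM at either pseudocount and 0 with the length trend removed. Between the knockdowns they numbered 0 with length-scaled counts and 0 with limma on TPM. Transcripts called in the DHX34 knockdown against SCR numbered 2 at 0.05 and 4 with DESeq2. For UPF1 knockdown against SCR they numbered 16 at 0.05, 16 with DESeq2 and 3 with no filter, and between the knockdowns 3 at 0.05, 3 with DESeq2, 2 with limma on TPM and 2 with all 9 libraries in 1 fit. Isoform shares called for UPF1 knockdown against SCR numbered 2 from expected counts and 2 with all 9 libraries, and between the knockdowns 1 with 0.5 TPM added and 2 from expected counts. NMD-annotated shares called numbered 0 at 0.005 in both comparisons with the UPF1 knockdown, 2 with 0.5 TPM added in both, and for UPF1 knockdown against SCR 2 from expected counts and 2 with all 9 libraries. The MAGOHB share of the pair from expected counts differed by 0.72 percentage points for DHX34 knockdown against SCR, opposite in sign to the TPM value, by 2.35 for UPF1 knockdown against SCR and by 1.63 between the knockdowns.

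With the replicate number as a replicate block, the genes called numbered 1 for DHX34 knockdown against SCR, transcripts 0 and NMD-annotated shares 0 in both comparisons with the UPF1 knockdown. Same-numbered libraries correlated at -0.0877 to 0.076 in their deviations from the group means, so the numbers were not taken to pair the libraries.

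None of the values that changed sign was called in the tests as reported. With limma on TPM (0.5 or 0.1 TPM added) MAGOHB was at 0.026 and RBM8A at -0.017 for UPF1 knockdown against SCR, RNPS1 at 0.14 in either knockdown, called in the UPF1 knockdown (limma adjusted p = 0.0025 and 0.0026), and PNN at 0.21 for UPF1 knockdown against SCR and 0.00017 or 0.000301 between the knockdowns. With the length trend removed, MAGOHB was at 0.041 in the UPF1 knockdown, and in the DHX34 knockdown CASC3 was at -0.034, RNPS1 at 0.0204 and PNN at -0.026. RBM8A for UPF1 knockdown against SCR was at -0.0036 with DESeq2 and at -0.24 with length-scaled counts, where it was called (edgeR adjusted p = 0.00049). EIF4A3 between the knockdowns was at 0.063 with the GENCODE join alone. With a library left out, values that changed sign ran from -0.016 to 0.022 for MAGOH, -0.012 to 0.076 for ACIN1 and -0.14 to 0.023 for PNN between the knockdowns, from -0.0095 to 0.021 for RBM8A in the UPF1 knockdown, and from -0.022 to 0.0056 for RNPS1, -0.068 to 0.092 for PNN and -0.087 to 0.14 for the ACIN1 NMD-annotated share in the DHX34 knockdown. The cause was not tested.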
